A study of Daphnia magna with 3 samples.

Results

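The transcripts of the mitochondrial genome were examined in wild-type Daphnia magna, a planktonic crustacean. The records were those of the deposited expression table that lay on scaffold01847 and carried the word mitochondrion in brackets in their description, which gave 13 of 47109 gene records and 13 of the 34 records on that scaffold. They stood for 10 genes of the respiratory chain: the complex I genes ND1, ND2, ND3, ND4, ND4L and ND5, the complex III gene CYTB, and the complex IV genes COX1, COX2 and COX3. ND4, CYTB and COX2 each had a pair of records. The pairs are called ND4 5′ and ND4 3′, CYTB 5′ and CYTB 3′ by their order along the gene, and COX2 long and COX2 short by their length. A single record with the bracketed word lay elsewhere, a 74 bp part of ND2 on contig53563, and it had 0 counts in all 3 libraries.

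The 3 libraries, replicates 1 to 3, formed a single group: wild-type females of the NIES strain, aged 12 days and releasing their clutch number 2, under nutrient-rich feeding with Chlorella and with no other agent. Each held whole bodies of 5 animals whose brood chambers had been emptied of eggs. The study's methods describe repeated treatments for triplicate sampling and animals kept singly, and say that these libraries, prepared elsewhere, followed the same methods. The labels do not tie each library to a culture of its own, so how far the spread between libraries is technical is not known. No other group was analysed here, and the comparisons are those between genes within a library and between the libraries. Counts over all gene records came to 8843488, 8679171 and 9092389 in replicates 1, 2 and 3. Sets of marker records were looked up by words in their descriptions, and each set had counts in all 3 libraries. Summed levels lay between 42103 and 81894 CPM for vitellogenin (the yolk precursor), 15828 and 18684 CPM for hemoglobin and 12023 and 12684 CPM for trypsin (gut). They lay between 5070 and 8038 CPM for cuticular proteins and 2981 and 5144 CPM for myosin heavy chain (muscle). CPM is the count per 1e+06 of the library size, scaled by the TMM method.

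Mitochondrial DNA of animals encodes the hydrophobic core of the respiratory chain, and the other subunits are encoded in the nucleus. Complex I takes electrons from NADH, complex III passes them to cytochrome c, complex IV hands them to oxygen, and complex V makes ATP from the proton gradient that results. In mammals and insects, long precursors are transcribed from both strands of the circle and cut at the tRNA genes that lie between the coding genes, and most of the mRNAs receive short poly(A) tails, by which oligo(dT) beads can hold them.

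The members ran along most of the scaffold, from ND2 at its start to ND1 near its end, in the order in which the mitochondrial genes stand in RefSeq (assembly ASM2063170v1.1). ND2, COX1, COX2, COX3, ND3 and CYTB, with 8 records, lay on the plus strand, and ND5, ND4, ND4L and ND1, with 5 records, on the minus strand. Of the 13 protein-coding mitochondrial genes of RefSeq, 10 had a record and 3 had none: ATP8 and ATP6, subunits of complex V that RefSeq places between COX2 and COX3, and ND6, a complex I subunit placed between ND4L and CYTB. The 2 rRNA genes follow ND1 in RefSeq, and they had no described record either.

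Records overlapped heavily, and those that lay wholly inside another record of the same strand received few counts or none. Coverage alone did not go with low counts, since COX1, 99.9% covered by other plus-strand records, was among the records with the most counts. COX2 short (2976 to 3606), COX3 (4819 to 5366) and ND3 (5309 to 5781) had 0 counts in every library. Each was fully covered by other plus-strand records. COX3 and ND3 lie wholly within COX2 long (3007 to 5781), so the counts of COX2 long run over the stretch from COX2 to ND3 and cannot be given to COX2 alone. CYTB 3′ (10711 to 11067), which lies inside an undescribed plus-strand record (10650 to 12490), had 500, 486 and 497 counts in replicates 1, 2 and 3. Its partner CYTB 5′ (10293 to 10641) overlapped no record and had 5181, 4479 and 3933 counts. The sources used here do not state how reads in overlapping records were divided or whether strand was used, so a count of 0 here means that the mapping gave the record no reads. A count of 0 allows up to 3 counts, or 0.309 to 0.354 CPM depending on the library, and this limit covers counting error only.

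**Figure D1:**
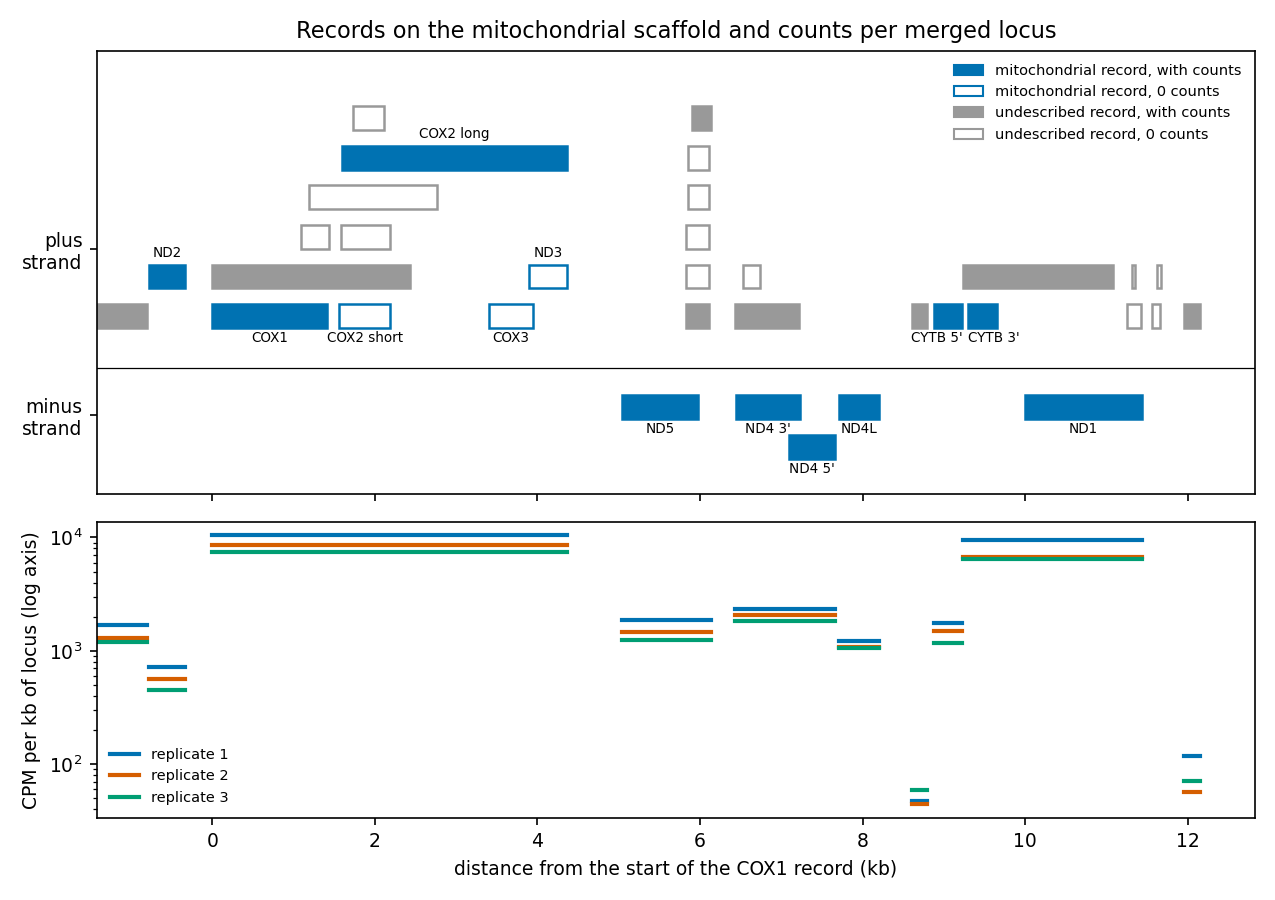
The upper panel draws the 34 records of the mitochondrial scaffold by strand against the distance from the start of the COX1 record (kb), with the 13 mitochondrial records in blue, the others in grey and records with 0 counts drawn without fill. The lower panel gives the CPM per kb (log axis) of each stretch of overlapping records in the 3 libraries. The stretches that hold COX1 to ND3 and ND1 stand above the rest in each library, at means of 8835 and 7549 CPM per kb.

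COX1 and COX2 long, of cytochrome c oxidase, and ND1, of complex I, had the most counts. COX1 (Dapma7bEVm015522sc01847NoSplit, scaffold01847, 1416 to 2822, plus strand), the catalytic subunit that binds haem and copper, had 154391, 117749 and 102780 counts in replicates 1, 2 and 3. These counts stood for 18234, 13860 and 10594 CPM. The highest library was replicate 1, at 1.72-fold the lowest, the widest range among the members. COX2 long (Dapma7bEVm020394sc01847NoSplit, plus strand) carries the description of the subunit that accepts electrons from cytochrome c. It had 135611, 122050 and 128161 counts, or 16016, 14366 and 13210 CPM, a 1.21-fold range. An undescribed record (1417 to 3846) that covers nearly all of COX1 and reaches into COX2 took a further 95039, 81664 and 83492 counts. COX3, the remaining mitochondrial subunit of complex IV, had no counts of its own. Summed over all 10 overlapping records, the stretch from COX1 to ND3 reached 45475, 37838 and 32410 CPM, a 1.40-fold range. This sum is free of how the reads were divided only if each read was counted in a single record, which is not stated.

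Among the complex I records, that of ND1 stood far above the others. ND1 (Dapma7bEVm011496sc01847NoSplit, 11410 to 12856, minus strand), a membrane subunit near the site where ubiquinone binds, had 146229, 98865 and 108997 counts, or 17270, 11637 and 11235 CPM. Replicate 1 was apart from the other libraries, which lay close together. Of the ND1 record, 86.6% is also covered by plus-strand records, mainly the undescribed one that starts at 10650, which had 31285, 26456 and 27793 counts. RefSeq places the 2 rRNA genes after ND1, and how much of this 1447 bp record ND1 fills was not checked. Whether the counts of the ND1 record come from ND1 alone was not tested.

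The other complex I genes were well below it. ND5 (6454 to 7393, minus strand) and ND4 encode antiporter-like subunits of the membrane arm, which take part in proton pumping, as does ND2. ND5 had 15932, 12625 and 12180 counts (1882, 1486 and 1255 CPM). ND4 3′ (7858 to 8645, minus strand) had 16388, 15264 and 14087 counts (1936, 1797 and 1452 CPM), and ND4 5′ (8515 to 9077, minus strand) had 7147, 6375 and 6177 counts. Both ND4 records were thus highest in replicate 1 and lowest in replicate 3 on the CPM scale. ND4L (9130 to 9611, minus strand), a small membrane subunit, had 4938, 4457 and 4944 counts and was among the steadiest members, with a 1.14-fold range in CPM. ND2 (641 to 1082, plus strand), one piece of a gene model that was split, had 2706, 2105 and 1930 counts, or 320, 248 and 199 CPM. ND3 had no counts of its own. CYTB, the only subunit of complex III that mitochondrial DNA encodes, reached 612, 527 and 405 CPM in its 5′ record and 59.1, 57.2 and 51.2 CPM in its 3′ record.

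Of all counts, the 13 members together held 5.53% in replicate 1 (Wilson 95% interval 5.51 to 5.54%), 4.43% in replicate 2 (4.42 to 4.44%) and 4.22% in replicate 3 (4.21 to 4.23%). These intervals cover counting error only. Replicate 1 had the highest share, and the other libraries lay closer together. COX1, COX2 long and ND1 alone made up 89.2%, 88.1% and 88.6% of the member counts. With its undescribed records the whole scaffold took 7.09%, 5.77% and 5.55%. The plus-strand members held 61.0%, 64.2% and 61.8% of the member counts. Minus-strand members other than ND1 held 9.08%, 10.1% and 9.74%, so that ND1 carried most of the minus-strand share. These shares follow the strand of each record. Whether strand was used in counting is not stated, so they do not measure transcription by strand.

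Since CPM grows with the length of a record, the order of the members was taken from the deposited TPM, which is scaled per length. COX1 had 14840, 11253 and 9063 TPM and ND1 had 13667, 9187 and 9346 TPM. Their order changed between libraries, with COX1 the higher in replicates 1 and 2 and ND1 in replicate 3. The mean log2 TPM ratio of 0.12 ± 0.17 (SD, n = 3) was below its own spread (exact sign-flip permutation test, two-sided, p = 0.5). COX2 long came next at 6085 ± 464 TPM, lower than ND1 by a log2 TPM ratio of 0.80 ± 0.22. It was followed by ND4 3′ (2545 ± 302 TPM), ND5 (1902 ± 352 TPM), CYTB 5′ (1711 ± 305 TPM), ND4 5′ (1534 ± 178 TPM), ND4L (1301 ± 75.1 TPM), ND2 (670 ± 145 TPM) and CYTB 3′ (182 ± 8.42 TPM). From ND5 to ND4L, the SDs of neighbours in this order overlap, while those of ND5 and CYTB 5′ do not reach ND4L. Ratios within a library were steadier, such as 0.15 ± 0.08 on the log2 TPM scale for ND5 over CYTB 5′. Of the 45 pairs of members with counts, 44 kept 1 order in all 3 libraries. The exact sign-flip test cannot go below p = 0.25 with 3 libraries, and the smallest p adjusted over the 45 pairs was 0.256, so that no pair could pass 0.05.

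**Figure D2:**
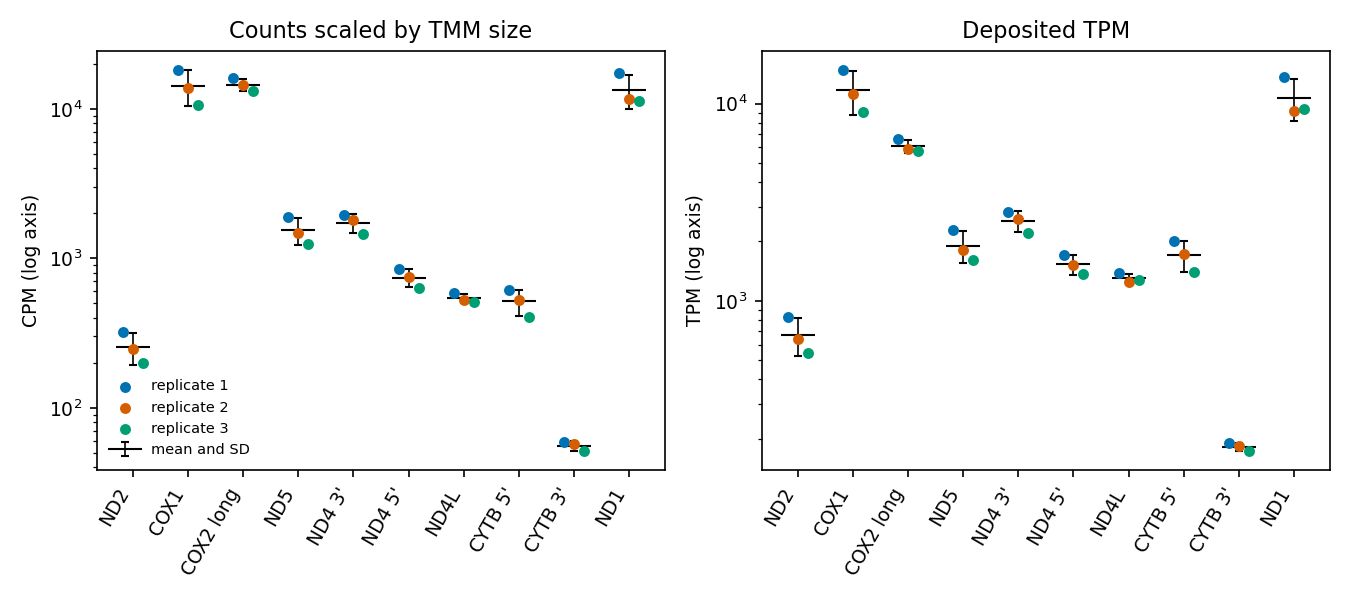
The 10 mitochondrial records with counts, in the order of their position, are plotted as CPM (left, log axis) and as deposited TPM (right, log axis), with a point for each library and the mean ± SD over the 3 libraries. COX1, COX2 long and ND1 stand above the others on both scales, and CYTB 3′ is the lowest.

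Pieces of the same gene were not measured alike. ND4 3′ exceeded ND4 5′ in every library, with log2 TPM ratios of 0.71, 0.77 and 0.70 (mean 0.73 ± 0.04, SD), the steadiest of the 45 ratios. CYTB 5′ exceeded CYTB 3′ by 3.41, 3.24 and 3.02 on the log2 TPM scale, or 9.32-fold on average, and CYTB 3′ is the piece that shares its bases with a longer record. The exact sign-flip test gave p = 0.25 for both ratios, the smallest it allows. The difference between the CYTB pieces is therefore not a difference between genes, and their order among the members depends on the record used.

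To lessen the part of read division, overlapping records of both strands were merged into 11 stretches, of which 10 had counts. These sums are free of it only if each read was counted in a single record, which is not stated. The stretch from COX1 to ND3 had 10416, 8667 and 7423 CPM per kb and the stretch with CYTB 3′ and ND1 had 9526, 6710 and 6412 CPM per kb. The former was the higher in each library, by 0.24 ± 0.12 on the log2 scale (SD, n = 3; exact sign-flip permutation test, p = 0.25). Then came a gap of 3.58-fold to the ND4 stretch at 2088 ± 262 CPM per kb. The ND5 stretch (1533 ± 321 CPM per kb), CYTB 5′ (1475 ± 297 CPM per kb) and an undescribed record at the scaffold start, 1 to 614 (1396 ± 262 CPM per kb), followed closely. CYTB 5′ differed neither from the ND5 stretch nor from the undescribed record beyond the spread, and its order with each changed between libraries. ND4L (1119 ± 80.7 CPM per kb) and ND2 (578 ± 137 CPM per kb) were lower in all 3 libraries.

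At the place where RefSeq has ND6, between ND4L and CYTB, the only record was an undescribed one (10022 to 10202, plus strand). It had 72, 68 and 105 counts, or 58.8 ± 11.6 TPM, which was 29.1-fold below CYTB 5′ and 22.1-fold below ND4L. It was low in all 3 libraries and highest in replicate 3. Beyond the ND1 record, the record at 13367 to 13560 had 193, 93 and 135 counts, and a pair of short records (12971 to 13070 and 13040 to 13090) had none. RefSeq has the rRNA genes after ND1, but their bounds on the scaffold were not checked.

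An undescribed record on the opposite strand of ND4 3′ behaved unlike the members. This record (7847 to 8627, plus strand) shares 98.6% of its length with minus-strand records. It had 976, 152 and 1569 counts, or 115, 17.9 and 162 CPM, so that replicate 2 lay far below the other libraries. ND4 3′ had 1936, 1797 and 1452 CPM in the same libraries, with replicate 2 in the middle. The opposite-strand record ranged 9.04-fold between libraries and ND4 3′ ranged 1.33-fold. Its share of the counts of both records was 5.62%, 0.986% and 10.02%. The sum of both was 2051, 1815 and 1614 CPM, a 1.27-fold range. Since strand use is not stated for these counts, reads of ND4 and of its antisense record cannot be told apart. It was the only record tested on the scaffold in which a library was at least 2-fold below, or above, both others, a call made in 4.19% of the 8976 records with at least 10 CPM on average and in 0 of the 10 members tested.

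**Figure D3:**
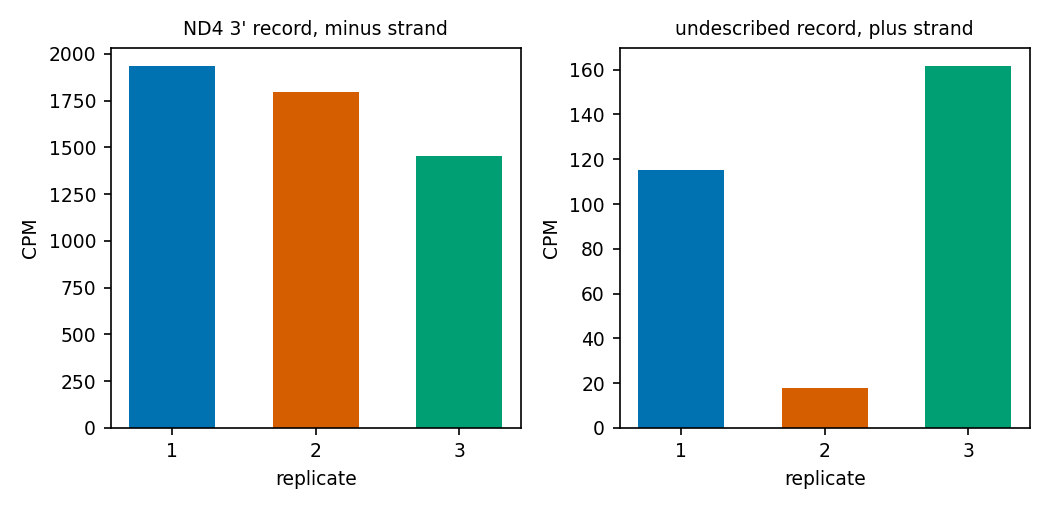
Bars give the CPM of ND4 3′ on the minus strand (left) and of the undescribed record on the plus strand that overlaps it (right) in replicates 1, 2 and 3, on separate linear axes from 0. The plus-strand record is at 17.9 CPM in replicate 2 and at 115 and 162 CPM in replicates 1 and 3, while ND4 3′ stays between 1452 and 1936 CPM.

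To ask whether the mitochondrial transcripts were steady between the libraries, a chi-square test for variation beyond counting noise was run on every record that averaged 10 counts or more. The test compares these libraries, not conditions. It called 54.5% of the 15516 records and 9 of the 10 members with counts (Benjamini-Hochberg adjusted over all records). The share of records called was 30.7% with no filter on counts, 69.3% among records averaging at least 100 counts and 29.0% without replicate 1. The member not called was CYTB 3′ (adjusted p = 0.102), and ND4L was called only with replicate 1 (adjusted p = 0.309 without it). Members are counted deeply, so that small differences pass this test. The size of the variation was set beside that of all records with at least 100 CPM, which are not matched to the members in abundance. The biological coefficient of variation, the spread between replicates beyond counting noise, was taken as the edgeR value shrunk toward a trend over records. Its median was 0.214 over the 10 members (0.186 to 0.247) and 0.205 over the 1584 records with at least 100 CPM. Shrinkage draws such values together, so the closeness of these medians is partly built in. The highest library exceeded the lowest by a median of 1.42-fold in the members and 1.34-fold in these 1584 records.

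The members shared their direction. All 10 were highest in replicate 1 and lowest in replicate 3 on the CPM scale. Replicate 1 was the highest library in 46.4% of the 1584 records with at least 100 CPM. The share of those records that were lowest in replicate 3, or that held both positions, is not given here. The median deviation of the members, as the log2 CPM of a library minus the mean of the others, was 0.35 in replicate 1, -0.01 in replicate 2 and -0.35 in replicate 3, against 0.07, 0.02 and -0.03 in the 1584 records. When scaled to total gene counts, replicate 1 was still the highest in all 10, but replicate 3 was the lowest in 7, the exceptions being COX2 long, ND4L and ND1. The members lie on 1 molecule and share reads through overlapping records, so they are not independent observations. Since whole bodies were pooled, fewer cells rich in mitochondria and less mitochondrial RNA per cell cannot be told apart. Myosin heavy chain records, of muscle, moved in the same order, at 5144, 4684 and 2981 CPM, and their part in the result was not tested. The other marker sets did not keep this order. Vitellogenin was highest in replicate 2 and lowest in replicate 3 (67916, 81894 and 42103 CPM). Hemoglobin (15828, 16056 and 18684 CPM) and trypsin (12023, 12603 and 12684 CPM) rose from replicate 1 to 3. Cuticular proteins were lowest in replicate 1 (5070, 8038 and 7210 CPM).

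**Figure D4:**
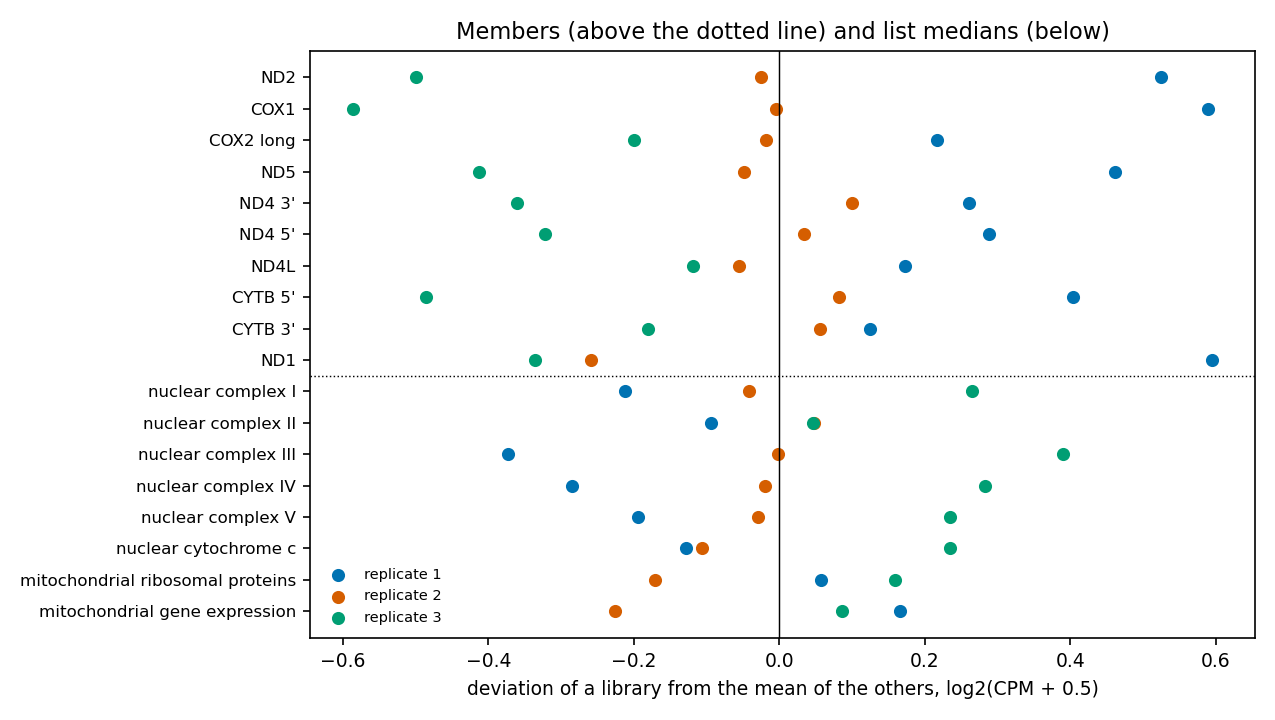
Each point is the deviation of a library from the mean of the others, in log2(CPM + 0.5), for the 10 mitochondrial records with counts (above the dotted line) and as the median of 8 lists of nuclear genes (below). Replicate 1 lies to the right and replicate 3 to the left for every mitochondrial record, and the reverse holds for the medians of nuclear complexes I, III, IV and V.

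The nuclear genes whose products join the same complexes went the other way. Nuclear records of complexes I to V and of cytochrome c, 96 in number, made up a share of all counts that was 1.25% in replicate 1, 1.34% in replicate 2 and 1.56% in replicate 3. On the CPM scale the sum of these nuclear records rose less, at 13009, 13653 and 14629 CPM. Counts of the mitochondrial members exceeded theirs 4.44-, 3.31- and 2.70-fold in replicates 1, 2 and 3. Of the detected nuclear records, 2 of 30 of complex I, 0 of 9 of complex III, 1 of 10 of complex IV and 2 of 13 of complex V were higher in replicate 1 than the mean of the others, against 50.3% of all 19927 records detected in all libraries. Their median deviations in replicate 1 were -0.21 for complex I, -0.37 for complex III, -0.28 for complex IV and -0.19 for complex V. As an example, the complex IV subunit 6B1 had 1668, 2074 and 2939 counts, and 6A had 1844, 2014 and 2965 counts. Both records overlap others, as do most of the nuclear records named here. ATP synthase subunit beta, the catalytic subunit of complex V, was an exception, with 1951, 1899 and 1816 CPM. Records for mitochondrial ribosomal proteins, which serve the translation of the mitochondrial mRNAs, had median deviations of 0.06, -0.17 and 0.16. The 8 records of the machinery that copies and transcribes mitochondrial DNA and processes its RNA had median deviations of 0.17, -0.23 and 0.09. Of those detected, 50 of 78 ribosomal and 6 of 8 machinery records were higher in replicate 1 than the mean of the others. Mitochondrial transcription factor A, with 199, 218 and 255 counts, was not among these 6 (deviation of -0.14 in replicate 1). The chi-square test called 23 of 30 complex I, 7 of 8 complex III, 9 of 10 complex IV, 11 of 12 complex V, 30 of 74 ribosomal and 3 of 8 machinery records, beside the 54.5% of all records.

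Per length, mitochondrial subunits stood above their nuclear partners. The median nuclear record of complex IV had 353, 382 and 444 TPM, and COX1 exceeded it by a log2 TPM ratio of 5.39, 4.88 and 4.35 in replicates 1, 2 and 3, or 29.3-fold on average. COX2 long exceeded it 15.5-fold. That record also runs over COX3 and ND3, and RefSeq places ATP8 and ATP6 between COX2 and COX3. Its ratio is therefore not that of a single complex IV subunit. The median nuclear record of complex I had 114, 122 and 142 TPM. It was exceeded 84.1-fold by the ND1 record, whose counts were not shown to come from ND1 alone. The other complex I members with counts exceeded it 20.2-fold (ND4 3′), 15.0-fold (ND5), 12.2-fold (ND4 5′), 10.4-fold (ND4L) and 5.26-fold (ND2). CYTB 5′ was above the median of complex III (280 ± 30.5 TPM) 6.06-fold, a mean log2 TPM ratio of 2.60, while CYTB 3′ had log2 TPM ratios of -0.44, -0.55 and -0.87. Against nuclear complex III records that overlap no other record (n = 2), the mean log2 TPM ratio was 3.23 for CYTB 5′. For CYTB 3′ it was 0.0077 ± 0.37 (SD), within its spread. Whether CYTB 3′ lies below the nuclear records thus depends on which records are used. Thus 9 of the 10 members lay above the nuclear median in all 3 libraries, and on average 0 nuclear records of the same complex were higher than any of these 9. By exact sign flips within libraries (permutation test, two-sided) every one of the 10 ratios had p = 0.25, before and after adjustment, the smallest value 3 libraries allow. The most abundant nuclear subunit of any complex, the lipid-binding protein of ATP synthase (complex V), had 2579 ± 344 TPM, with a mean above those of the members other than COX1, ND1 and COX2 long.

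**Figure D5:**
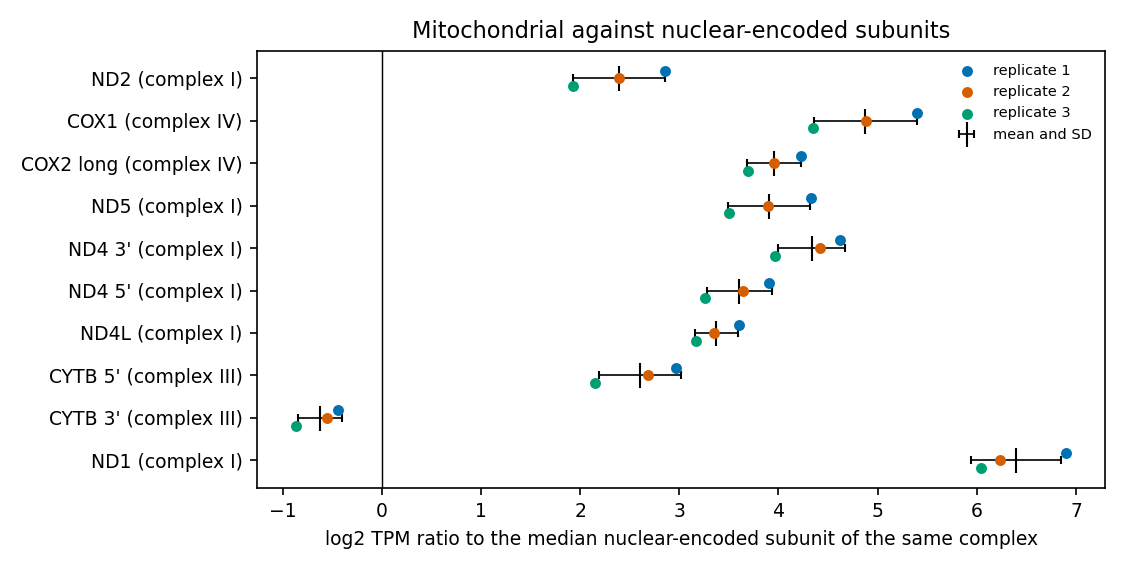
For each of the 10 mitochondrial records with counts, points give the log2 ratio of its TPM to the median nuclear-encoded record of the same complex in each library, with the mean ± SD over the 3 libraries. The ND1 record is highest at 84.1-fold on average, CYTB 3′ alone lies below 0, and replicate 1 lies to the right of replicate 3 in every row. COX2 long, set against complex IV, also runs over COX3 and ND3.

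The records most like the members in their pattern were sought among 1571 records of other scaffolds with at least 100 CPM, by the root mean square difference between their log2 CPM deviations and those of the summed members over the 3 libraries. The nearest were a nodal modulator 1-like record with 1262, 986 and 980 counts (difference 0.0052), an undescribed protein with 1355, 1062 and 1052 counts, a clustered mitochondria protein homolog with 2784, 2188 and 2134 counts, the cytoplasmic leucine-tRNA ligase with 2272, 1786 and 1823 counts and a protein phosphatase alpha-2 isoform with 2651, 2095 and 2134 counts. A pattern over 3 libraries is shared by many genes, and 145 of the 1571 records lay within a difference of 0.1.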

How the data were processed

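Libraries were paired-end and made from oligo(dT)-selected RNA, so levels also depend on poly(A) tails. Reads had been aligned by the authors with CLC Genomics Workbench 12 against the wFleaBase genome, and total counts per gene record were deposited without normalization. Genome version, strand setting and the handling of reads in overlapping records: not given in the sources used here. RPKM and TPM values, also deposited, were made by the authors from these counts and the length of each record. The deposited signal column named CPM in the file headers holds counts scaled by TMM effective sizes. The CPM computed here has that same scaling and equals it apart from rounding (edgeR 4.0.16, R 4.3.3). The biological coefficient of variation, as shrunken values per record, came from an intercept-only edgeR model (records with at least 1 CPM on average). Deviations used log2(CPM + 0.5). Ratios between records were tested within libraries by exact permutation of signs (two-sided). The chi-square test, with expected shares from TMM sizes, was tested on simulated data. Nuclear lists were found by words in the descriptions, without assembly factors. Named genes were all records of the scaffold with counts, records described as mitochondrion elsewhere, the 2 records of highest TPM in each nuclear list (those described are a selection of them), and the 5 nearest in pattern. Members and lists were chosen with earlier results of these data known. RefSeq (assembly ASM2063170v1.1) was used only for gene names and their order. Alternatives were DESeq2 1.42.0 size factors, total counts, TMM without the scaffold, other filters and lengths, and leaving out each replicate. Other computations ran in Python 3.11.15 with scipy 1.17.1.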

Additional observations from a re-analysis of the deposited data

How the results depend on the processing

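No paired analysis was possible because the libraries form a single group. The summed level of the members, the 9 members above their nuclear median and the 44 ordered pairs were within the spread, or within 1.5 times, under all alternatives run for them, among them DESeq2 size factors. Scaling to total counts lowered the 10 members that were highest in replicate 1 and lowest in replicate 3 to 7. With the whole scaffold in place of the members the mean share was 6.14% in place of 4.73%. Without length correction the mean log2 count ratio (± SD) of 4 pairs changed its sign. These were COX1 to COX2 long (-0.061 ± 0.25), COX2 long to ND1 (0.14 ± 0.22), ND4 5′ to CYTB 5′ (0.54 ± 0.098) and ND4L to CYTB 5′ (0.0845 ± 0.21). Of these, only ND4 5′ to CYTB 5′ exceeded its spread. CYTB 3′ against nuclear complex III records that overlap no other record (n = 2) moved to 0.0077 ± 0.37 (SD), within its spread. With such records alone the median TPM of nuclear complex III was 183 in place of 280.1. Leaving out a replicate gave 4569 to 6992 records called by the chi-square test in place of 8454, the fewest without replicate 1, and 8 to 10 members called. ND4L was not called without replicate 1, and CYTB 3′ was called without replicate 2 (adjusted p = 0.0413, chi-square test with Benjamini-Hochberg adjustment). A library stood apart in 1520 records at 1.5-fold and in 60 records with at least 100 CPM, in place of 376, and in 0 members at either setting. The scalings for the order of the libraries were chosen after seeing the data. The depth limits the records with under about 10 counts, of which the members had none apart from those at 0.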
